A study of Homo sapiens with 15 samples.

Results

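The genes described here are 10 genes of the YAP/TEAD transcription axis: CCN1, CCN2, F3, CRIM1, ANKRD1, AJUBA, AMOTL2, LATS2, YAP1 and TEAD1. They were taken by name and not by a rule on their values, though with earlier results of these data known. They come from a table of 61248 loci, and all 10 were among the 14999 loci expressed highly enough to be tested. Their messenger RNA was measured in the established lung adenocarcinoma line NCI-H1975, which carries mutant EGFR. The 15 libraries fall into 5 groups of 3. These are almonertinib (a drug that blocks EGFR kinase activity), EGF (which binds and activates the receptor), siEGFR (an siRNA against EGFR), siNC (a control siRNA) and control. The labels give no dose, time, culture condition or vehicle, and the cells without a named treatment are called control. Whether replicates came from separate cultures is not given, so p-values measure only how far these libraries spread, and that spread may be technical.

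YAP1 is a transcriptional coactivator that has no DNA-binding domain of its own and reaches DNA mainly through the TEAD proteins. The Hippo kinases LATS1 and LATS2 phosphorylate YAP1 and hold it out of the nucleus, so the axis is switched largely at the protein, which messenger RNA levels do not measure. Classic target genes encode secreted matricellular proteins such as CCN1 and CCN2, and several others, including LATS2 and AMOTL2, restrain YAP1 in turn. In lung cancer lines the axis has been studied as a route by which cells survive EGFR inhibitors.

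The secreted and cell-surface members fell with almonertinib, the set split with EGF, and 5 members stood higher in siNC than in control. With almonertinib, 6 of the 10 genes fell against control (CCN1, CCN2, F3, CRIM1, ANKRD1 and TEAD1) and 0 rose, where 30.1% of all tested genes changed (18.0% lower, 12.1% higher). With EGF, CCN2 and F3 rose and 5 genes (ANKRD1, AJUBA, AMOTL2, LATS2 and CRIM1) fell, where 49.3% of all genes changed, 22.0% higher and 27.3% lower. With siEGFR, 3 genes (CCN1, F3 and AJUBA) rose against siNC and 0 fell, where 5.46% of all genes changed, 2.27% higher and 3.19% lower. Between siNC and control, 5 genes were higher and 1 was lower in siNC, a count of 6 of 10 against a background of 66.0% of all genes (34.4% higher, 31.6% lower). Rose, fell, higher and lower in these counts mean a Benjamini-Hochberg adjusted p under 0.05 over all tested genes, from limma on log2(FPKM + 1), where FPKM counts fragments per kilobase of gene, scaled to library depth. The almonertinib, EGF and siNC comparisons share the 3 control libraries, and the 3 siNC libraries enter both siRNA comparisons. In bulk RNA, fewer cells making a transcript and less of it per cell cannot be told apart.

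Promoter sequences of 4 genes are shown because these genes take the opposite sides of the EGF response, CCN2 and F3 higher and ANKRD1 and AMOTL2 lower. Each runs 5′ to 3′ on the gene's own strand, which is the minus strand for all 4, from 250 bases before to 50 after an annotated start, in RefSeq on GRCh38.p14. They lie at chr6:131951323-131951622 (CCN2), chr1:94541710-94542009 (F3), chr10:90921038-90921337 (ANKRD1) and chr3:134374398-134374697 (AMOTL2, start 2 of the 2 annotated). Capitals mark the TEAD core GGAATG, or CATTCC where it lies on the other strand, and the AP-1 site TGANTCA, where N is any base.
CCN2: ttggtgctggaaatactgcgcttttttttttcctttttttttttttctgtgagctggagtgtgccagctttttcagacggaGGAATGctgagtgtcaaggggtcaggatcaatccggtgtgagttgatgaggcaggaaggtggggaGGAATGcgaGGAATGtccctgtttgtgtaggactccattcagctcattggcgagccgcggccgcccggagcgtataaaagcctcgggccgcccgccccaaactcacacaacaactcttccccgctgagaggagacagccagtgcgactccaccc
F3: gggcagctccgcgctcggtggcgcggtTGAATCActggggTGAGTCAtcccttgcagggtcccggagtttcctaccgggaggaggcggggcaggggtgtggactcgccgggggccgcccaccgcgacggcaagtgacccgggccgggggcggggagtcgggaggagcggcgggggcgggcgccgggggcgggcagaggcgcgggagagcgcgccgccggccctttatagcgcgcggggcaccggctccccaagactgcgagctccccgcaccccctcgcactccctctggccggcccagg
ANKRD1: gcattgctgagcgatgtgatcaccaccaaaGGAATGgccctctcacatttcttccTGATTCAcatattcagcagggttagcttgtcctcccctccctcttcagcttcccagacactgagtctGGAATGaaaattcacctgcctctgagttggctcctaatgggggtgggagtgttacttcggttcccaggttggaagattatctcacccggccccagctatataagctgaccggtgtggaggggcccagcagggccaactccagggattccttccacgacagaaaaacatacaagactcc
AMOTL2: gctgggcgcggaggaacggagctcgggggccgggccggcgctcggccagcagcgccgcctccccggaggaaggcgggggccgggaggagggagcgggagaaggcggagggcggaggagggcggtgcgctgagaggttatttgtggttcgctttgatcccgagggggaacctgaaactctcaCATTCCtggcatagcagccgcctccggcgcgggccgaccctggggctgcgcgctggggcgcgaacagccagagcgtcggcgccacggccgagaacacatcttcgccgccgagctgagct

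The CCN2 promoter holds 3 TEAD cores, the nearest at position -95 from the start, and no AP-1 site. F3 holds no TEAD core in this window and 2 AP-1 sites close together, at positions -223 and -210 from the start. ANKRD1 holds 2 TEAD cores and 1 AP-1 site, and AMOTL2 holds 1 TEAD core on the other strand at the start shown. Across the 7 members with an entry in the RefSeq table, 6 hold a TEAD core at 1 or more of their starts, YAP1 and LATS2 among them, and 2 hold an AP-1 site. These members have 9 starts, and start 1 of AJUBA and start 1 of AMOTL2 hold neither motif. The counts of 6 and 2 are per gene, whereas the shares that follow are per promoter. Of 35116 promoters of the same length, 14.0% hold the TEAD core and 0.128% hold 3 or more, and 7.71% hold the AP-1 site and 0.515% hold 2 or more. A TEAD core and an AP-1 site can share bases, and none do in these promoters. CCN1, CRIM1 and TEAD1 have no entry there. The matches describe letters in a window and do not show binding.

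**Figure D1:**
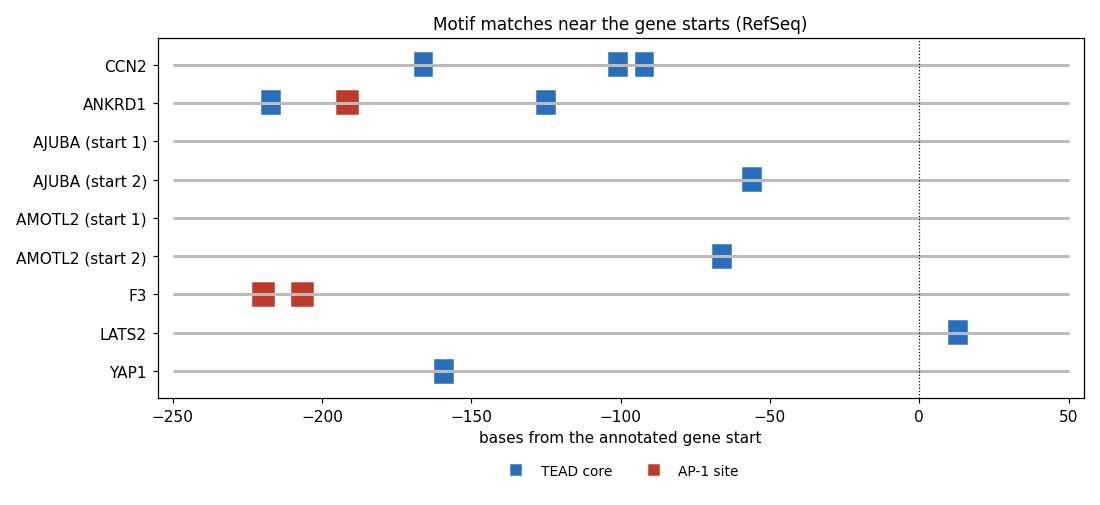
Positions of motif matches in the promoters of the 7 members with an entry, in bases from the annotated start at 0 (horizontal axis), one line per start. Blue boxes are TEAD cores and red boxes AP-1 sites on either strand. CCN2 has 3 TEAD cores and F3 has 2 AP-1 sites and no TEAD core.

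The libraries held 18009903 to 34908302 reads, recovered from the steps of the FPKM values. EGFR, the target of the siRNA, had 29.9, 28.6 and 28.9 FPKM in siEGFR libraries, against 49.4, 49.4 and 49.8 FPKM in siNC libraries, so the siEGFR mean was 58.8% of the siNC mean. Its level in siNC was itself 2.03 times that in control, and the siEGFR libraries lay above the control libraries, which had 22.3 to 28.0 FPKM. Replicates were much tighter in the siRNA groups. The median within-group SD on the log2 scale was 0.14 for almonertinib, 0.11 for EGF, 0.05 for siEGFR, 0.06 for siNC and 0.15 for control. Every pair of replicates differed by more than sampling noise, with a chi-square per degree of freedom of 1.61 to 46.7 over genes. All 9 lung epithelial markers reached 1 FPKM in some library, summing to 929 to 1161 FPKM. The keratins KRT8, KRT18 and KRT19 each stood at 129 FPKM or more in every library. The highest values of NKX2-1, NAPSA and SFTPB were 15.7, 1.72 and 3.51 FPKM. Of 6 leukocyte markers only CD14 reached 1 FPKM, and the fibroblast markers DCN, LUM and PDGFRA stayed at or below 0.0717 FPKM. The fibroblast markers COL1A1 and COL1A2, however, stood at 3.67 to 14.5 FPKM and at 128.5 FPKM or more. Of 4 endothelial markers, PECAM1 reached 1.53 FPKM and CDH5 1.90 FPKM at most, and VWF and KDR stayed at or below 0.446 FPKM.

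Of the secreted and cell-surface members, CCN1, CCN2 and F3 were lowest with almonertinib, and CRIM1 was about as low with EGF. CCN1 (ENSG00000142871), a matricellular protein formerly called CYR61, had 12.1, 12.2 and 12.8 FPKM in almonertinib libraries, 17.2, 19.3 and 19.2 FPKM in EGF libraries, 55.1, 53.4 and 53.0 FPKM in siEGFR libraries, 39.6, 42.2 and 41.2 FPKM in siNC libraries, and 17.3, 20.2 and 19.0 FPKM in control libraries. The almonertinib libraries were below all others, EGF and control overlapped, and both siRNA groups were far above them. CCN1 fell with almonertinib by 0.57 ± 0.06 on the log2 scale (SE, adjusted p = 3.75e-05), to 65.7% of the control mean. EGF left a difference of -0.02 with a 95% interval of -0.15 to 0.11 (adjusted p = 0.827). It rose with siEGFR against siNC by 0.39 ± 0.06 (adjusted p = 0.00208) and in siNC against control by 1.08 ± 0.06 (adjusted p = 5.16e-09), where the means differed 2.18 times.

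CCN2 (ENSG00000118523), the matricellular protein formerly called CTGF, had 6.20, 5.64 and 4.73 FPKM in almonertinib libraries, 22.1, 24.7 and 22.7 FPKM in EGF libraries, 20.7, 21.7 and 21.3 FPKM in siEGFR libraries, 17.1, 17.4 and 17.3 FPKM in siNC libraries, and 15.2, 18.2 and 14.4 FPKM in control libraries. The almonertinib libraries lay below, and the EGF libraries above, all other libraries. The almonertinib decrease of 1.38 ± 0.09 (adjusted p = 6.77e-07) left 34.6% of the control mean and ranked 16 from the bottom of 14999 genes. EGF raised it by 0.51 ± 0.09 (adjusted p = 0.000338), or 1.45 times. Its difference between siNC and control was 0.11 with a 95% interval of -0.08 to 0.31 (adjusted p = 0.275), in the libraries where CCN1 and F3 were higher. Against siNC, siEGFR gave 0.28 ± 0.09, which did not pass over all 15 libraries (adjusted p = 0.0926) and did in a fit of the 6 siRNA libraries alone (adjusted p = 0.00132; range over all alternatives 0.00132 to 0.263).

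F3 (ENSG00000117525) encodes tissue factor, the cell-surface receptor that starts blood coagulation, and its highest and lowest group means differed 22.8 times, the largest ratio among the 10 genes. Its levels were 0.740, 0.780 and 0.808 FPKM in almonertinib libraries (43 to 50 reads), 6.43, 4.77 and 5.96 FPKM in EGF libraries, 17.5, 17.6 and 18.1 FPKM in siEGFR libraries, 12.9, 12.5 and 14.0 FPKM in siNC libraries, and 2.36, 1.95 and 2.04 FPKM in control libraries. None of the 5 groups overlapped: the order was almonertinib, control, EGF, siNC and siEGFR. F3 fell with almonertinib by 0.81 ± 0.08 (adjusted p = 2.98e-05), to 36.6% of the control mean, since the added 1 FPKM shrinks log2 changes of low genes. EGF raised it by 1.10 ± 0.08 (adjusted p = 2.73e-07), or 2.70 times. In siNC it stood 6.20 times above control (log2 change 2.18 ± 0.08, adjusted p = 1.73e-10). The increase with siEGFR against siNC was 0.41 ± 0.08 (adjusted p = 0.0123). That call was lost without siEGFR replicate 3 (0.0583), siNC replicate 1 (0.0581) or siNC replicate 2 (0.0631), in a range of 0.0017 to 0.0631 over the alternatives.

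CRIM1 (ENSG00000150938), a transmembrane protein whose cysteine-rich repeats bind BMPs, had 20.4, 17.7 and 15.9 FPKM in almonertinib libraries, 20.1, 16.4 and 17.5 FPKM in EGF libraries, 32.8, 30.3 and 31.7 FPKM in siEGFR libraries, 35.6, 35.5 and 36.0 FPKM in siNC libraries, and 27.2, 26.1 and 24.4 FPKM in control libraries. The inhibitor and ligand groups overlapped each other and both lay below control. CRIM1 fell with almonertinib by 0.51 ± 0.09 (adjusted p = 0.00100) and with EGF by 0.50 ± 0.09 (adjusted p = 0.000308), to 69.5% of the control mean in each case. CRIM1 and ANKRD1 were the members that fell with both. It was higher in siNC than in control by 0.45 ± 0.09 (adjusted p = 0.000453), and siEGFR against siNC gave -0.17 ± 0.09 (adjusted p = 0.344).

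**Figure D2:**
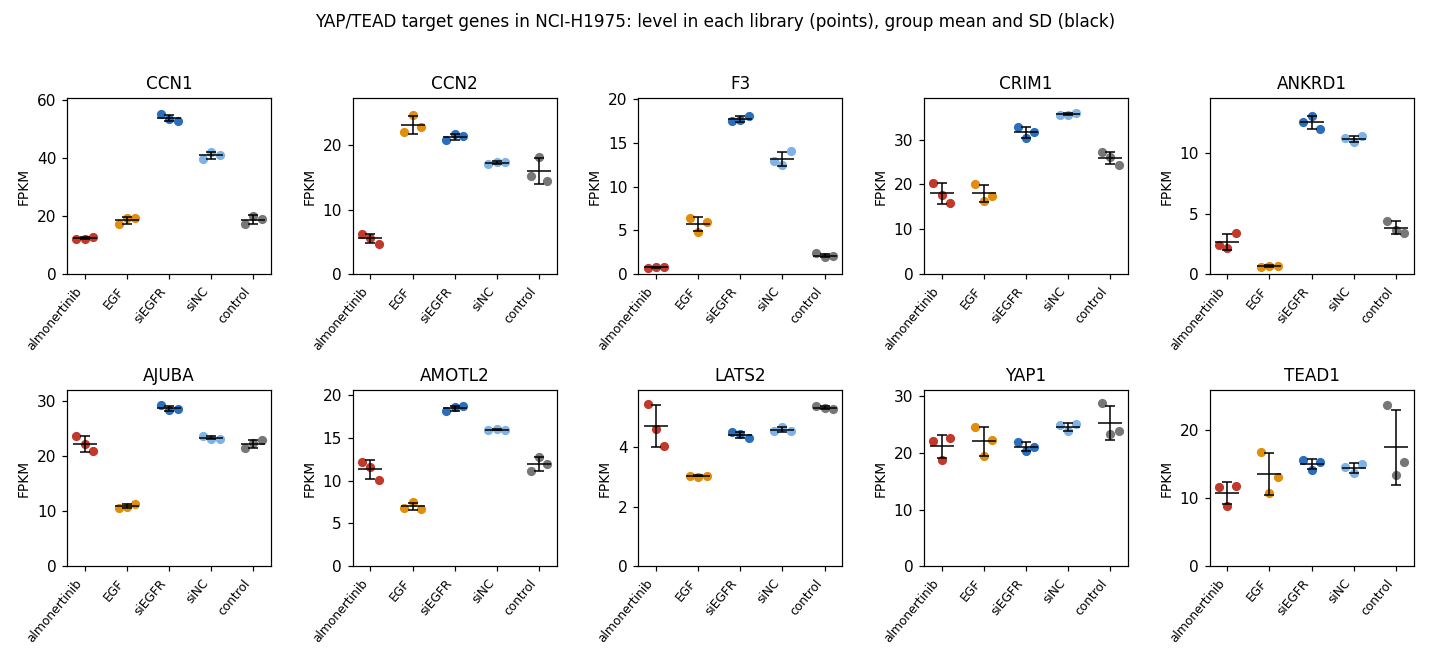
Level of each of the 10 genes in FPKM (vertical axis, from 0) in almonertinib, EGF, siEGFR, siNC and control libraries. Points are the 3 libraries of a group and black marks the mean and SD. CCN2 is lowest with almonertinib and highest with EGF, while ANKRD1, AJUBA, AMOTL2 and LATS2 are lowest with EGF.

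ANKRD1 and the members that act on the Hippo kinases or on YAP1 itself were lowest with EGF. ANKRD1 (ENSG00000148677), an ankyrin-repeat protein known from heart muscle and found in the nucleus, had 2.44, 2.14 and 3.41 FPKM in almonertinib libraries, 0.614, 0.708 and 0.677 FPKM in EGF libraries (27 to 38 reads), 12.6, 13.1 and 12.0 FPKM in siEGFR libraries, 11.3, 10.9 and 11.4 FPKM in siNC libraries, and 4.42, 3.64 and 3.41 FPKM in control libraries. The EGF libraries were below all others, and the siRNA libraries were above all others. EGF lowered ANKRD1 by 1.53 ± 0.11 (adjusted p = 1.34e-07), to 17.4% of the control mean, and siNC stood 1.34 ± 0.11 above control (adjusted p = 1.74e-07). Its fall with almonertinib was smaller, 0.41 ± 0.11 (adjusted p = 0.0136), and the highest almonertinib library almost touched the lowest control library. That call was lost without control replicate 1 (0.0591), without almonertinib replicate 2 (0.0628) and in a fit of these 6 libraries alone (0.152), in a range of 0.000512 to 0.152 over the alternatives. With siEGFR against siNC the difference was 0.15 ± 0.11 (adjusted p = 0.545).

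AJUBA (ENSG00000129474), a LIM-domain protein that binds and restrains the LATS kinases, had 23.7, 22.2 and 20.9 FPKM in almonertinib libraries, 10.6, 10.7 and 11.3 FPKM in EGF libraries, 29.3, 28.4 and 28.6 FPKM in siEGFR libraries, 23.7, 23.2 and 23.2 FPKM in siNC libraries, and 21.4, 22.4 and 22.9 FPKM in control libraries. Almonertinib and control overlapped, while the EGF mean was 48.9% of the control mean. The decrease with EGF was 0.97 ± 0.05 (adjusted p = 7.67e-09). Almonertinib gave 0.00 ± 0.05 with a 95% interval of -0.11 to 0.11 (adjusted p = 0.995), and siNC against control gave 0.07 ± 0.05 (adjusted p = 0.250). AJUBA rose with siEGFR against siNC by 0.29 ± 0.05 (adjusted p = 0.00422).

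AMOTL2 (ENSG00000114019), an angiomotin-family protein that binds YAP1 and keeps it in the cytoplasm, had 12.2, 11.6 and 10.1 FPKM in almonertinib libraries, 6.77, 7.47 and 6.68 FPKM in EGF libraries, 18.1, 18.6 and 18.7 FPKM in siEGFR libraries, 15.9, 16.1 and 15.9 FPKM in siNC libraries, and 11.2, 12.8 and 12.0 FPKM in control libraries. It followed the order of ANKRD1, with EGF lowest and siEGFR highest, except that almonertinib and control overlapped. AMOTL2 fell with EGF by 0.70 ± 0.07 (adjusted p = 2.27e-06) and was higher in siNC than in control by 0.39 ± 0.07 (adjusted p = 0.000224). The difference was -0.08 ± 0.07 with almonertinib (adjusted p = 0.394) and 0.20 ± 0.07 with siEGFR against siNC (adjusted p = 0.127).

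LATS2 (ENSG00000150457), the kinase that inactivates YAP1, had 5.47, 4.61 and 4.06 FPKM in almonertinib libraries, 3.05, 3.02 and 3.05 FPKM in EGF libraries, 4.50, 4.45 and 4.31 FPKM in siEGFR libraries, 4.56, 4.70 and 4.55 FPKM in siNC libraries, and 5.40, 5.31 and 5.29 FPKM in control libraries. EGF libraries were again below all others, and the almonertinib libraries spread from below siEGFR to above control. LATS2 fell with EGF by 0.65 ± 0.07 (adjusted p = 6.86e-06), to 57.0% of the control mean. It was lower in siNC than in control by a small margin, at -0.18 ± 0.07 (adjusted p = 0.0425), a call lost when any 1 of the 6 libraries was left out (range over the alternatives 0.0302 to 0.163). Almonertinib gave -0.16 ± 0.07 (adjusted p = 0.111). This change was -0.25 and passed without almonertinib replicate 1 (0.00772), was -0.07 without almonertinib replicate 3 (0.334), and passed with TPM scaling (0.0456), in a range of 0.00772 to 0.490 over the alternatives. Against siNC, siEGFR gave -0.05 ± 0.07 (adjusted p = 0.850).

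The coactivator and its DNA-binding partner had the smallest ratios of highest to lowest group mean of the 10 genes, 1.20 for YAP1 and 1.62 for TEAD1. YAP1 (ENSG00000137693) had 22.1, 18.7 and 22.6 FPKM in almonertinib libraries, 24.5, 19.4 and 22.3 FPKM in EGF libraries, 21.9, 20.4 and 21.1 FPKM in siEGFR libraries, 24.9, 23.8 and 25.1 FPKM in siNC libraries, and 28.8, 23.3 and 23.8 FPKM in control libraries. Every neighbouring pair in the order of its group means overlapped, but almonertinib did not overlap control and siEGFR did not overlap siNC. YAP1 did not pass the threshold in any of the 4 comparisons. It gave -0.25 ± 0.10 with almonertinib (adjusted p = 0.0686), -0.19 ± 0.10 with EGF (adjusted p = 0.121), -0.21 ± 0.10 with siEGFR against siNC (adjusted p = 0.283) and -0.03 ± 0.10 in siNC against control (adjusted p = 0.783). It passed as lower in 4 of 15 alternatives with almonertinib (range 0.0140 to 0.267) and in 2 of 14 with EGF (range 0.0302 to 0.404). Of single libraries, the call was gained without control replicate 2 (0.0427) or almonertinib replicate 3 (0.0464) for almonertinib and without EGF replicate 1 (0.0479) for EGF. The changes were smaller, at -0.15 with almonertinib and -0.10 with EGF, without control replicate 1, at -0.17 with almonertinib without its replicate 2, and at -0.10 with EGF without its replicate 2. The 95% interval for siNC, -0.24 to 0.18, lies below the increases of CCN1, F3 and ANKRD1 in the same libraries.

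TEAD1 (ENSG00000187079) had 11.6, 8.82 and 11.8 FPKM in almonertinib libraries, 16.8, 10.8 and 13.1 FPKM in EGF libraries, 15.6, 14.2 and 15.3 FPKM in siEGFR libraries, 14.6, 13.6 and 14.97 FPKM in siNC libraries, and 23.6, 13.4 and 15.3 FPKM in control libraries. Control replicate 1 stood far above the other controls. TEAD1 fell with almonertinib by 0.62 ± 0.18 (adjusted p = 0.0239), but without control replicate 1 the decrease was 0.39 and did not pass (adjusted p = 0.0925). It also failed without almonertinib replicate 2 (0.103), without control replicate 1 and almonertinib replicate 3 together (0.0598), with no filter on low values (0.0690) and in a fit of these 6 libraries alone (0.127), in a range of 0.0036 to 0.127 over the alternatives. In the same control libraries the nuclear RNA MALAT1 had 99.4, 48.5 and 70.0 FPKM and GAPDH had 1075, 1563 and 1305 FPKM, so control replicate 1 was also highest in MALAT1 and lowest in GAPDH. The part of this library difference in the TEAD1 result was not tested beyond leaving the library out. EGF gave -0.32 ± 0.18 (adjusted p = 0.168), siEGFR against siNC 0.06 ± 0.18 (adjusted p = 0.942) and siNC against control -0.22 ± 0.18 (adjusted p = 0.308).

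**Figure D3:**
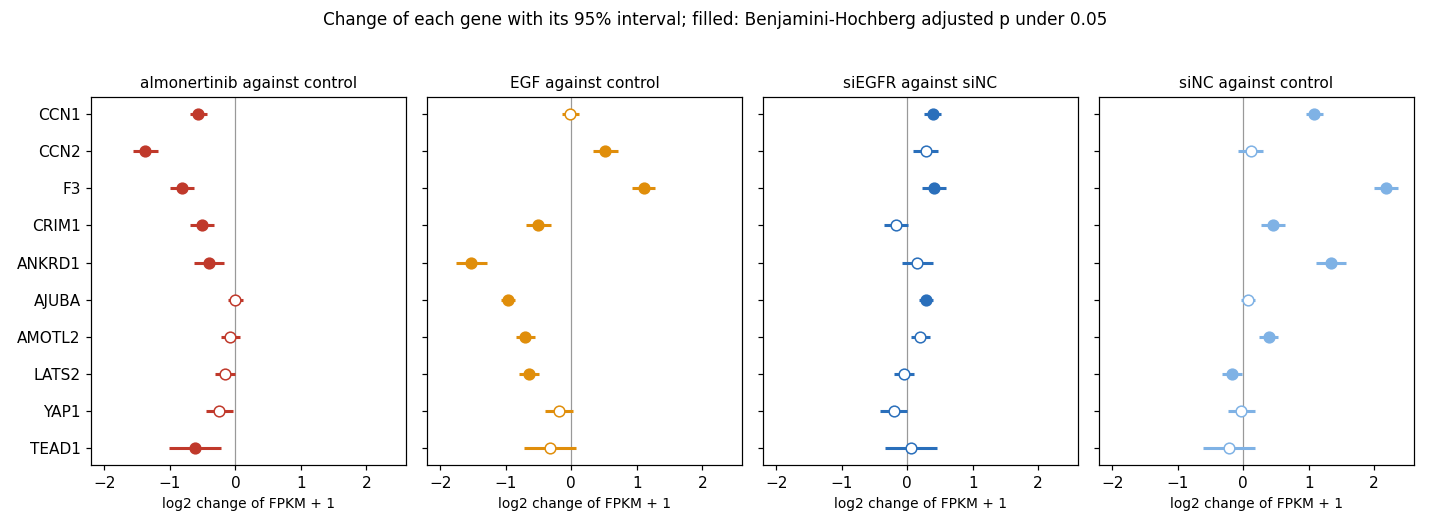
Log2 change of FPKM + 1 (horizontal axis) of each gene in 4 comparisons, with 95% intervals from limma. Filled points have an adjusted p under 0.05. CCN2 and F3 lie left of 0 with almonertinib and right of 0 with EGF, and TEAD1 has the widest intervals.

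Set side by side, the almonertinib response covered 6 members, with a median change of -0.46 over all 10 against -0.06 over all tested genes. The 4 secreted or cell-surface members CCN1, CCN2, F3 and CRIM1 passed under each of the 15 alternatives, and ANKRD1 and TEAD1 did not. Without control replicate 1 and almonertinib replicate 3, a choice made after seeing the data, 5 members passed. That fit called 3940 of the 14999 genes, against 4517 in the main fit. The direction of calls over all genes depended on the scaling. Higher genes made up 40.2% of the calls as deposited, 22.0% after rescaling to TPM and 53.5% after median-ratio scaling. The members called were all lower in each case, 8 with TPM and 6 with median ratios. Of all 14999 genes, 3876 were called lower with TPM and 2067 with median ratios, against 2700 as deposited. In 7 of the 10 members the almonertinib and control libraries did not overlap, as in 35.2% of all genes.

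The EGF response covered 7 members, and these 7 passed under each of the 14 alternatives, 2 of which also called YAP1. The changes had a median of -0.41 over all 10 against -0.04 over all genes. Groups did not overlap in 7 members and in 51.1% of all genes. The siEGFR response was smaller, with a median of 0.18 over the 10 members against 0.01 over all genes. Libraries of siEGFR and siNC did not overlap in 9 of 10 members, all but TEAD1, against 40.5% of all genes. In a fit of the 6 siRNA libraries alone 8 members passed, 6 higher and 2 lower (CRIM1 and YAP1), and 3080 genes passed in all, against 819 over the 15 libraries. For siNC against control, non-overlap held for 7 members and 68.8% of all genes, with a member median of 0.25 against 0.03. The siRNA cultures also differed from control in other markers: the leukocyte list summed to 7.40 to 8.05 FPKM in siNC against 30.7 to 40.6 FPKM in control, nearly all from CD14, and the fibroblast list to 137 to 144 FPKM in siNC against 329 to 343 FPKM in control, nearly all from COL1A2. The endothelial list summed to 0.664 to 0.776 FPKM in siNC against 3.18 to 3.80 FPKM in control. The part of these marker differences in the members' differences was not tested.

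Almonertinib and siEGFR both act against EGFR, and the difference of their effects was tested directly, each against its own control. It passed for 5 of 10 members, all lower, where 13.7% of all genes passed, 7.71% lower and 5.95% higher. CCN2 had an almonertinib effect of -1.38 and a siEGFR effect of 0.28, a difference of -1.66 ± 0.13 (adjusted p = 6.42e-06). For F3 the effects were -0.81 and 0.41, a difference of -1.22 ± 0.12 (adjusted p = 5.60e-05), and for CCN1 -0.57 and 0.39, a difference of -0.95 ± 0.09 (adjusted p = 2.61e-05). The signs of both effects were opposite in these 3 genes, and the siEGFR effect of CCN2 did not pass the threshold on its own. ANKRD1 differed by -0.56 ± 0.15 (adjusted p = 0.0282) and AJUBA by -0.29 ± 0.07 (adjusted p = 0.0181). The ANKRD1 difference did not pass in 9 of 21 alternatives, 8 of them with 1 library left out (range 0.000687 to 0.0752), and that of AJUBA did not with median-ratio scaling (0.249; range 0.00758 to 0.249). Over all genes, higher calls made up 43.5% as deposited, 24.3% with TPM and 57.8% with median ratios. TPM moved the median of all genes in this difference to -0.18, against -0.07 as deposited.

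The EGF effect minus the siEGFR effect passed for 7 members, where 38.3% of all genes passed, 21.3% lower and 17.0% higher. It was lower for ANKRD1 (-1.68 ± 0.15, adjusted p = 2.64e-06), AJUBA (-1.26 ± 0.07, adjusted p = 5.03e-08), AMOTL2 (-0.90 ± 0.10, adjusted p = 1.05e-05), LATS2 (-0.60 ± 0.10, adjusted p = 0.000401), CCN1 (-0.40 ± 0.09, adjusted p = 0.00242) and CRIM1 (-0.33 ± 0.12, adjusted p = 0.0451). F3 alone was higher, by 0.70 ± 0.12 (adjusted p = 0.000498). AJUBA fell with EGF and rose with siEGFR, whereas F3 rose with both. The CRIM1 call held in 7 of 20 alternatives (range 0.0149 to 0.106).

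Other genes of the pathway were read from a list of 25 Hippo components, 21 of them tested. With almonertinib 11 of the 21 fell and 0 rose, or 52.4% called against 30.1% of all genes, with a median of -0.34 against -0.06 over all genes. As many calls, 11, were made without control replicate 1 and almonertinib replicate 3, and 5 in a fit of the 6 almonertinib and control libraries alone. Over all 14999 genes these settings called 3940 and 857, against 4517 in the main fit. AMOTL1, an angiomotin-family relative of AMOTL2, averaged 1.93 ± 0.171 FPKM with almonertinib and 4.42 ± 0.437 FPKM in control (SD, n = 3 each; log2 change -0.89, adjusted p = 3.19e-06). WWTR1, which encodes the YAP1 paralog TAZ, averaged 5.86 ± 0.528 FPKM with almonertinib and 10.5 ± 1.63 FPKM in control (-0.73, adjusted p = 0.000266). The kinase MAP4K4 averaged 16.5 ± 0.845 FPKM with almonertinib and 22.0 ± 1.53 FPKM in control (-0.39, adjusted p = 0.000416). With EGF, 5 rose and 2 fell, or 33.3% called against 49.3% of all genes. MAP4K4 rose by 0.80 (adjusted p = 1.73e-07), NF2, the upstream activator of the kinases, by 0.47 (adjusted p = 3.14e-06), and AMOTL1 by 0.60 (adjusted p = 1.25e-05). WWTR1 was the 1 component that changed with siEGFR against siNC, at 12.3 ± 0.581 FPKM in siEGFR and 16.3 ± 0.797 FPKM in siNC (-0.38, adjusted p = 0.0480), or 4.76% called, near the 5.46% of all genes. That call was lost when any 1 of the 6 libraries was left out and held in 4 of 14 alternatives (range 0.00268 to 0.179). VGLL4, a TEAD-binding repressor, gave -0.20 (adjusted p = 0.131) and NF2 0.11 (adjusted p = 0.229). In siNC against control 10 were higher and 5 lower, or 71.4% called, near the 66.0% of all genes. The 3 smallest adjusted p-values were those of NF2 (0.98, adjusted p = 1.23e-09), TEAD4 (1.42, adjusted p = 1.56e-08) and WWC1 (0.78, adjusted p = 5.10e-08). The 4 not tested, AMOT, VGLL1, VGLL3 and WTIP, had at most 0.245 FPKM in any library.

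Of 18 other YAP/TEAD targets 16 were tested. With almonertinib 10 fell and 1 rose, or 68.8% called against 30.1% of all genes, with a median of -0.35 against -0.06. As many, 11, passed without control replicate 1 and almonertinib replicate 3, and 3 in a fit of the 6 almonertinib and control libraries alone. Over all 14999 genes these settings called 3940 and 857, against 4517 in the main fit. NT5E, a cell-surface nucleotidase, averaged 6.78 ± 0.741 FPKM with almonertinib and 13.2 ± 1.42 FPKM in control (-0.86, adjusted p = 2.72e-05). GADD45A, a growth-arrest gene, was the 1 that rose (0.56, adjusted p = 0.000568). With EGF, 4 rose and 8 fell, or 75.0% called against 49.3% of all genes. The receptor tyrosine kinase AXL fell to 4.91 ± 0.164 FPKM with EGF, against 12.6 ± 0.808 FPKM in control (-1.20, adjusted p = 1.60e-09), while NT5E rose by 1.60 (adjusted p = 1.48e-08). With siEGFR against siNC 3 rose and 1 fell, or 25.0% called against 5.46% of all genes. AXL rose to 29.1 ± 0.499 FPKM in siEGFR, against 17.2 ± 0.157 FPKM in siNC (0.73, adjusted p = 3.12e-06), and NT5E changed by -0.52 (adjusted p = 0.00344). In siNC against control 6 were higher and 5 lower, or 68.8% called, near the 66.0% of all genes, with NT5E at 1.68 (adjusted p = 3.08e-09) and CCDC80 at -0.73 (adjusted p = 9.22e-08). FOXF2 and RBMS3 were below the filter.

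**Figure D4:**
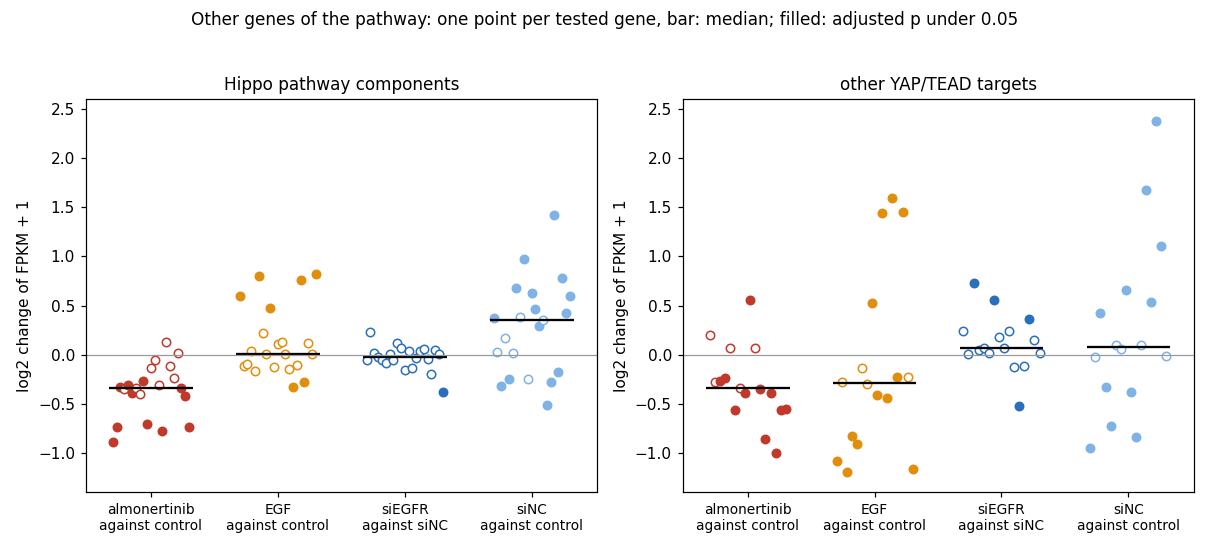
Log2 change of FPKM + 1 (vertical axis) of 21 Hippo components and 16 other YAP/TEAD targets in 4 comparisons. Each point is a gene, filled where its adjusted p is under 0.05, and the bar is the median. Hippo components lie mostly below 0 with almonertinib (median -0.34) and close to 0 with siEGFR (median -0.03).

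Likeness to a member was measured by Pearson correlation of log2(FPKM + 1) over the 15 libraries, among 2407 genes with sizeable differences between groups. The libraries form 5 groups, so these values mainly compare 5 group levels. Nearest to CCN1 were KRT81 (r = 0.988), NOL6 (0.981) and KRT7 (0.980). Nearest to CCN2 were ENC1 (0.974), AMOTL1 (0.967) and TGM2 (0.961), and nearest to ANKRD1 were LRRC20 (0.971), TSPAN8 (0.968) and PEG10 (0.961). AMOTL1 thus tracked CCN2, whereas its relative AMOTL2 tracked ANKRD1 (0.959) and AJUBA (0.932). CCN1 and F3 had r = 0.941, and CCN2 had 0.145 with ANKRD1 and -0.25 with AJUBA.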

How the data were processed

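The authors deposited one table of FPKM values per gene, which keeps each library's depth as steps of 1 read. Per the submitters' processing notes the tools were HISAT2, featureCounts and DESeq2 and the build was hg19; no version or role is given. Symbols were matched by Ensembl ID for 60463 loci. A gene was kept if 3 or more libraries reached 1 FPKM. The values log2(FPKM + 1) were fitted in R 4.3.3 with limma 3.58.1 (trend, robust), 1 coefficient per group, in one model of all 15 libraries with 10 residual degrees of freedom. Tests were two-sided, with Benjamini-Hochberg adjustment over all tested genes. Reads were recovered as whole numbers within 0.01 for all 14999 kept genes and used with limma-voom as an alternative. Per the labels, mRNA was enriched with oligo(dT) beads. Tables and figures were made with pandas 2.3.3, numpy 2.4.6 and matplotlib 3.10.9 in Python 3.11.15. The limma step was checked on simulated data with the same added spread in every group, so that check does not cover groups of unequal spread.

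The genes, lists, markers, named-gene rule and alternatives were chosen with earlier results of these data known, so no count here is independent support. All 10 genes are named, with EGFR, the 3 list genes of smallest p per comparison and the 3 genes most like CCN1, CCN2 and ANKRD1. Values of 1 list gene are not reported here; the counts include it. Genes among the lists named beyond these were chosen after their values were seen. Alternatives changed the pseudocount (0.1), filter, scaling, libraries fitted, variance trend, replicate block or threshold (0.01), or left out a library.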

Additional observations from a re-analysis of the deposited data

Results flagged for a closer look

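The almonertinib effect differed from the siEGFR effect in a direct test for 5 genes, on the log2(FPKM + 1) scale and each effect taken against its own control group. The difference was -0.95 for CCN1, -1.66 for CCN2, -0.56 for ANKRD1, -0.29 for AJUBA and -1.22 for F3. In all 3 almonertinib libraries CCN1, CCN2 and F3 lay below every control library, and in all 3 siEGFR libraries they lay above every siNC library. EGFR itself was at 58.8% of the siNC mean in siEGFR, and siNC and control differed in 66.0% of tested genes, so the effects start from different baselines. The part of either in the difference was not tested.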

How the results depend on the processing

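Of 1040 changes of the 10 genes recomputed under alternatives, 967 stayed on the same side of the threshold, 49 lost the call and 24 gained it. In 0 did the direction reverse where either fit passed. The filter, own-library, variance-trend, replicate-block and threshold alternatives leave the estimate itself unchanged, so their direction could not reverse. Only the pseudocount, scaling, limma-voom and left-out libraries could change it. Changes that passed in neither fit could switch sign and still count among the 967. Leaving out 1 library in turn gave 4 to 7 called genes for almonertinib (6 with all libraries), 7 to 8 for EGF (7), 2 to 3 for siEGFR (3), 5 to 6 for siNC (6), 4 to 6 for almonertinib minus siEGFR (5) and 6 to 7 for EGF minus siEGFR (7). With only the 6 siRNA libraries, where the within-group spread is smaller, 8 genes passed for siEGFR against siNC. With only the almonertinib and control libraries, where the spread is larger, 4 genes passed for almonertinib against control. These fits hold fewer samples, and the main fit shares 1 spread estimate per gene over all groups. Over all genes, own-library fits called 857 for almonertinib against 4517, and 3080 for siEGFR against 819. Leaving out 1 library gave 441 to 525 for siEGFR, and 2853 for almonertinib without its replicate 2. For almonertinib minus siEGFR, 3 genes passed at an adjusted p under 0.01. The replicate numbers did not clearly pair the samples, and pairing is not excluded. In deviations from group means, same-numbered libraries correlated at -0.162 to 0.539 for almonertinib and control. The values were -0.124 to 0.597 for EGF and control, and -0.00675 to 0.0328 for siEGFR and siNC. Differently numbered libraries correlated at -0.593 to 0.569, -0.672 to 0.328 and -0.0412 to 0.0293 in the same order. With the replicate block, 8 genes passed for almonertinib minus siEGFR, 7 for almonertinib, 8 for EGF, 3 for siEGFR and 6 for siNC. The block added YAP1 for almonertinib (0.0140) and EGF (0.0302). It also raised the calls over all genes, to 5614 from 4517 for almonertinib and to 8040 from 7396 for EGF. For siEGFR they rose to 1036 from 819, and for siNC to 10352 from 9899. The count over all genes for almonertinib minus siEGFR is not given. In fits of their own libraries 5 of 21 Hippo components and 7 of 16 other targets passed for siEGFR, against 1 and 4. The calls over all 14999 genes rose in the same fit, to 3080 from 819. Depth limits ANKRD1 with EGF (27 to 38 reads) and F3 with almonertinib (43 to 50 reads).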

Other observations

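Close relatives in the pathway took different courses, in genes picked after their values were seen. With EGF, WWTR1 averaged 19.3 ± 2.27 FPKM and 10.5 ± 1.63 FPKM in control (SD, n = 3 each; log2 change 0.82, limma adjusted p = 2.21e-05), whereas YAP1 gave -0.19 (adjusted p = 0.121). TEAD4 averaged 6.32 ± 0.817 FPKM with EGF and 3.32 ± 0.381 FPKM in control (0.76, adjusted p = 1.29e-05), TEAD2 fell by 0.33 (adjusted p = 0.000368), and TEAD3 gave -0.11 (adjusted p = 0.183). AMOTL1 rose with EGF by 0.60 while AMOTL2 fell by 0.70, and with almonertinib AMOTL1 fell by 0.89 while AMOTL2 gave -0.08. LATS1 gave 0.03 with EGF (adjusted p = 0.858), where LATS2 fell by 0.65. The differences between relatives were not tested.

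Among the targets, THBS1, a matricellular glycoprotein, fell with EGF to 31.6 ± 1.76 FPKM, against 72.5 ± 5.95 FPKM in control (-1.17, adjusted p = 4.44e-07), opposite in direction to CCN2. IGFBP3, a binding protein of insulin-like growth factors, rose with EGF to 44.9 ± 15.3 FPKM, against 15.3 ± 1.27 FPKM in control (1.44, adjusted p = 2.48e-05).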
